A study of Mus musculus with 19 samples.

Results

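The genes described here encode the nuclear subunits and assembly factors of respiratory complex I, and were taken by name as all genes whose symbol starts with Nduf. A probe set had to map to exactly 1 such symbol, its log2 signal had to be above 4 on at least 5 of the 19 arrays, and the brightest probe set, by its mean over the 19 arrays, was used where a gene had several. This left 43 genes of the 10733 genes tested. Before the filter, 88 probe sets stood for 44 Nduf genes, and 80 of them passed. The gene that did not pass was Ndufb4, and 10 more Nduf probe sets map to several symbols and stood for no member. The subunits Ndufs6, Ndufa11 and Ndufb4 are thus not analysed here as members.

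The values are log2 expression signals from Affymetrix arrays, 1 array per mouse, made from total RNA of the left ventricle after the right ventricle and the atria had been taken off. The animals were C57BL/6 males, 7 weeks old at the operation, and the tissue was taken 4 weeks after it. The groups were 7 mice with banding of the aorta and heart failure (HF mice), 7 mice with banding and no heart failure (noHF mice), and 5 mice with a sham operation. The mice carried no transgene or mutation according to the labels, which also do not say by which criterion heart failure was called. Left ventricular weight over tibia length averaged 8.97 ± 0.608 in HF mice, 6.98 ± 0.437 in noHF mice and 5.14 ± 0.26 in sham mice (mean ± SD, index as labelled). The lung index averaged 20.4 ± 2.18 in HF mice, 9.1 ± 0.8 in noHF mice and 8.59 ± 0.493 in sham mice. Mouse numbers within a group are names only.

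Complex I takes electrons from NADH, passes them along iron-sulfur clusters to ubiquinone and pumps protons across the inner mitochondrial membrane. Its peripheral arm holds the N module, which oxidises NADH, and the Q module, which reduces ubiquinone. Its membrane arm holds the proton-pumping modules, called ND1, ND2, ND4 and ND5 after the mitochondrially encoded subunits in them, with nuclear accessory subunits around each. Assembly factors help to build these modules and leave the finished enzyme. Heart muscle is dense in mitochondria and draws most of its ATP from them. The roles given below for single proteins come mostly from work on human and bovine proteins.

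The start regions of these genes are shown for 4 members, because the members moved together and nuclear respiratory genes are known for start-site motifs of NRF1, GABPA, YY1 and the ERR receptors. Ndufs4, Ndufs3 and Ndufb3 were chosen by their results in HF against sham mice. Ndufa6 was chosen for the largest fall among subunits whose window holds the NRF1 letters. The 4 windows thus do not show whether a motif goes with the fall. Each window runs from 250 bases before to 50 bases after the annotated start (RefSeq, build GRCm38.p6) and is written 5′ to 3′ on the strand of the gene, with any motif match in capitals. Ndufs4, the member with the largest fall in HF mice, lies at chr13:114388045-114388344 on the minus strand and holds AAGATGGCG, the YY1 letters. Ndufs3, a core Q-module subunit, lies at chr2:90904672-90904971 on the minus strand and holds CCGGAAGT, the GABPA letters, read on the opposite strand. Ndufa6, an accessory N-module subunit, lies at chr15:82354242-82354541 on the minus strand and holds the NRF1 letters, which are GCGCA, then any base, then GCGC, read on the opposite strand. Ndufb3, an accessory ND5-module subunit whose signal hardly differed between groups, lies at chr1:58586147-58586446 on the plus strand and holds none of them.
Ndufs4: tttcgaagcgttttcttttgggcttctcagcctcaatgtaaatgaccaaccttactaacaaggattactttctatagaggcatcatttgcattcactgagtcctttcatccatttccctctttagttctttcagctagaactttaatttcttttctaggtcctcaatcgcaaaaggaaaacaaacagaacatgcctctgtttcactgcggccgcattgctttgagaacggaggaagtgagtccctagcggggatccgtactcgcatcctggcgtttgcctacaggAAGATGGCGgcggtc
Ndufs3: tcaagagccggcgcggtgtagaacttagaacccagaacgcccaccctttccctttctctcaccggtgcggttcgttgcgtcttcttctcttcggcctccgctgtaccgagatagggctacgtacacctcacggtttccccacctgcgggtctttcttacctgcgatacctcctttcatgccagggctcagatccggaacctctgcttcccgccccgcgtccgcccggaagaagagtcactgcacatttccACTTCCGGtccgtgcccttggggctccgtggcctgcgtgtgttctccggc
Ndufa6: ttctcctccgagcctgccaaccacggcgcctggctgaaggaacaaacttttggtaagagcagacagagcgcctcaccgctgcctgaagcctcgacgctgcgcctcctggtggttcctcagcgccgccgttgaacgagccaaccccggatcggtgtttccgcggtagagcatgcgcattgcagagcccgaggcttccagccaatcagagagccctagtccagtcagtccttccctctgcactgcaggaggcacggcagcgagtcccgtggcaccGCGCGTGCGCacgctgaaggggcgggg
Ndufb3: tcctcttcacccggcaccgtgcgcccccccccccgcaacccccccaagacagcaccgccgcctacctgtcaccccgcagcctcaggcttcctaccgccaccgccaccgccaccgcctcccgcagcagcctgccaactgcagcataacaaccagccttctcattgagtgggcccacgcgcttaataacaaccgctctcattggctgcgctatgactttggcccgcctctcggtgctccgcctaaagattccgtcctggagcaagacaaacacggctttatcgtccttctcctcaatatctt

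Of the 43 members, 38 had a start window in the RefSeq table, in 40 windows because some genes have more than 1 entry. Both strands were searched, and matches of different motifs were allowed to overlap. The NRF1 letters stood in 7 member windows (17.5%), of Ndufa5, Ndufa6, Ndufa8, Ndufaf4, Ndufaf5 and Ndufs5, against 4.6% of all 32851 windows in the table. The YY1 letters stood in 5 member windows (12.5%), of Ndufa9, Ndufaf8, Ndufc1, Ndufs4 and Ndufs7, against 1.4% of all windows. GABPA's CCGGAAGT stood in 1 member window (2.5% against 3.89% of all windows), and the ERR element TCAAGGTCA in 0 (against 0.423%). The members with a match all fell in HF against sham mice, as did most of those without one, and no difference between them was tested. A match here is a run of letters, not a measured site. No window was given for Ndufa2, Ndufa4l2, Ndufaf6, Ndufb9 and Ndufs1.

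All 43 members lay above the filter on all 19 arrays, with a lowest value of 6.57. Means over all arrays ran from 7.09 to 15.04 over the members, with 31 members above 13 and 10 below 12, so that most members are measured in the upper part of the array's range of 2.19 to 16.77. Signals of different probe sets are not set against each other below, since probes differ in how strongly they bind.

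Some arrays stood apart. The control probe set for 18S ribosomal RNA was high on 6 arrays, of sham mice 1 to 3 and noHF mice 5 to 7 (9.03 to 11.8), and low on the other 13, which include all 7 HF mice (5.14 to 7.62). No HF array is in the high set, so the sets are unequally spread over the groups. The 3′ minus 5′ difference of the actin control probe sets, a sign of RNA length, was 0.661 to 0.905 in HF mice, 0.672 to 0.898 in noHF mice and 0.943 to 1.02 in sham mice, with no overlap between banded and sham mice. The 15 cardiomyocyte markers were all detected and their summed linear signal was 579499 to 635203 in HF mice, 611733 to 633708 in noHF mice and 586613 to 633549 in sham mice. The summed signal of 11 fibroblast markers was 91071 to 118126 in HF mice, 63475 to 96744 in noHF mice and 51862 to 73983 in sham mice. Of the 11, 10 were called higher in HF than in sham mice, as were 20.4% of all genes. None of 7 lymphocyte markers passed the filter.

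Most complex I genes were lower in HF mice. Against sham mice, 38 of the 43 members fell, 0 rose and 5 did not pass the threshold of an adjusted p of 0.05, while 18.9% of all genes tested were called lower and 20.4% higher. The median log2 change of the members was -0.28 (that of Ndufb10, whose linear signal fell by 17.6%), against 0.01 over all 10733 genes. The changes ran from -0.51 for Ndufs4 to 0.27 for Ndufa4l2, and 41 of 43 were negative, against 49% of all genes. In 30 members every HF mouse lay below every sham mouse, which was so for 9.06% of all genes, and in 0 members every HF mouse lay above (8.5% of all genes). Of the 33 members that are structural subunits, 31 fell, and of the 8 assembly factors 6 fell. As the arrays hold whole ventricle, fewer cells of a type and less RNA per cell cannot be told apart.

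**Figure D1:**
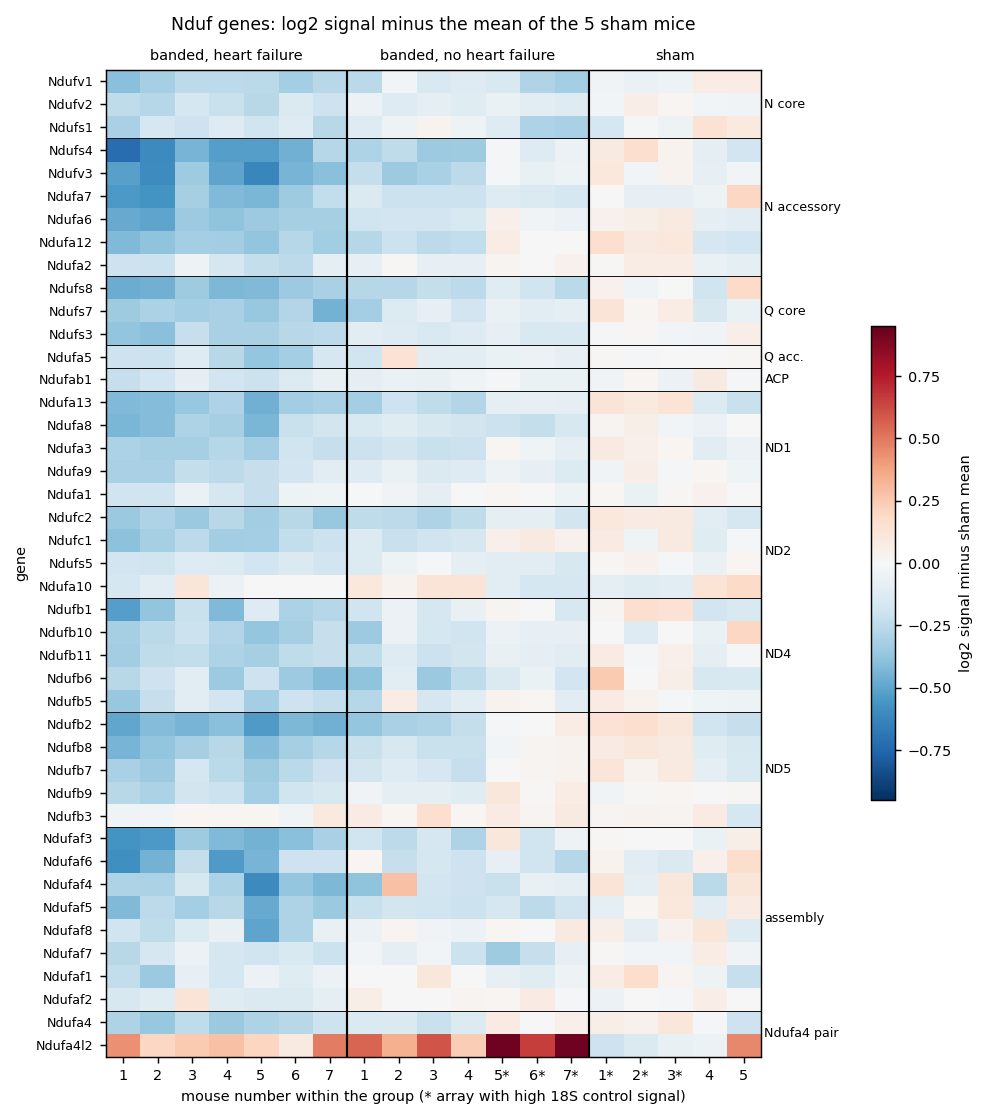
Log2 signal of each Nduf gene (rows, by module) in each mouse (columns, HF left, then noHF, then sham) minus the mean of the 5 sham mice for that gene, on a colour scale from blue (lower) to red (higher). Columns of HF mice are blue in most rows, Ndufa10, Ndufb3 and Ndufa4l2 are not, and a star marks arrays with a high 18S control signal.

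The shift showed in single mice. The median over the members of the distance from the sham mean was -0.33 to -0.22 in the 7 HF mice, -0.18 to -0.04 in the 7 noHF mice and -0.07 to 0.03 in the 5 sham mice, on the log2 scale. All HF mice were thus below all noHF mice, and the ranges of noHF and sham mice overlapped. The same median over all genes was -0.01 to 0.02 in HF mice, -0.02 to 0.05 in noHF mice and -0.02 to 0.02 in sham mice. In each HF mouse 39 to 42 of the 43 members were below their sham mean, in each noHF mouse 28 to 38 and in each sham mouse 11 to 32. Within noHF mice, numbers 1 to 4, whose arrays are in the low 18S set, had medians of -0.18 to -0.12 and numbers 5 to 7 had -0.08 to -0.04.

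The core subunits of the N module carry the flavin and the first iron-sulfur clusters. All 3 fell in HF against sham mice, where 18.9% of all genes were called lower. Ndufv1, which binds NADH and the flavin, had log2 signals of 13.91 to 14.06 (median 14.04) in HF mice, 13.98 to 14.28 (median 14.16) in noHF mice and 14.27, 14.24, 14.26, 14.38 and 14.38 in sham mice. Every HF mouse was below every sham mouse, and the change was -0.29 ± 0.0561 (log2 ± SE, limma adjusted p = 0.000455). Ndufv2, an iron-sulfur subunit beside it, had 14.59 to 14.73 (median 14.65) in HF mice, 14.74 to 14.81 (median 14.76) in noHF mice and 14.84, 14.93, 14.88, 14.84 and 14.83 in sham mice, and the 3 groups formed 3 separate ranges. Its change in HF against sham mice was -0.21 ± 0.0419 (adjusted p = 0.000604). Ndufs1, the largest subunit of the module, had 13.87 to 14.05 (median 13.99) in HF mice, 13.87 to 14.21 (median 14.05) in noHF mice and 14.01, 14.16, 14.13, 14.31 and 14.27 in sham mice, so that HF and sham mice overlapped. Its change was -0.19 ± 0.0685 (adjusted p = 0.0317), and the call was lost without HF mouse 1 or 7 or sham mouse 2, 4 or 5 (adjusted p up to 0.0826).

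The accessory subunits of the N module held Ndufs4 and Ndufv3, the members with the largest falls by their brightest probe sets. Ndufb2 of the ND5 module and the assembly factor Ndufaf3 came next (-0.45 and -0.43). All 6 accessory N-module subunits fell (18.9% of all genes), with a median log2 change of -0.39. Ndufs4, which sits where the N and Q modules meet and whose loss causes a mitochondrial encephalopathy in mice and humans, had 11.65 to 12.10 (median 11.85) in HF mice, 12.03 to 12.36 (median 12.13) in noHF mice and 12.46, 12.53, 12.41, 12.28 and 12.19 in sham mice. HF and sham mice did not overlap, and HF mice overlapped with noHF mice only through HF mouse 7. The change was -0.51 ± 0.0827 (adjusted p = 0.000105), a signal 1.42-fold lower in HF mice. Ndufv3, a small subunit with isoforms that differ between tissues, had 13.87 to 14.15 (median 13.99) in HF mice, 14.14 to 14.47 (median 14.26) in noHF mice and 14.59, 14.46, 14.52, 14.41 and 14.46 in sham mice. Again no HF mouse reached a sham mouse, and the change was -0.48 ± 0.0688 (adjusted p = 2.56e-05). Ndufa7 changed by -0.41 ± 0.0629 (adjusted p = 6.37e-05) and its 3 groups did not overlap, with 13.06 to 13.39 (median 13.21) in HF mice, 13.42 to 13.50 (median 13.46) in noHF mice and 13.63, 13.55, 13.55, 13.58 and 13.82 in sham mice. Ndufa6, which binds the mitochondrial acyl carrier protein, had 12.67 to 12.86 (median 12.83) in HF mice, 12.98 to 13.22 (median 13.03) in noHF mice and 13.21, 13.23, 13.26, 13.09 and 13.07 in sham mice. HF mice lay below both other groups, and the change against sham was -0.38 ± 0.0585 (adjusted p = 5.77e-05). Ndufa12, a relative of the assembly factor Ndufaf2, changed by -0.35 ± 0.0745 (adjusted p = 0.00122) without overlap between HF and sham mice. Ndufa2, with a thioredoxin-like fold, had the smallest change of the 6, -0.17 ± 0.0512 (adjusted p = 0.0154), and its HF and sham mice overlapped.

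The Q module hands electrons to ubiquinone. Its 3 core subunits measured here all fell (18.9% of all genes), and in all 3 no HF mouse reached a sham mouse (9.06% of all genes). Ndufs8, which carries iron-sulfur clusters, had 14.80 to 14.96 (median 14.85) in HF mice, 15.00 to 15.15 (median 15.02) in noHF mice and 15.31, 15.23, 15.27, 15.08 and 15.45 in sham mice, with HF mice below both other groups. Its change was -0.40 ± 0.0581 (adjusted p = 3.65e-05), a decrease to a signal 1.32-fold lower. Ndufs7, whose cluster is the last before ubiquinone, had 14.49 to 14.66 (median 14.62) in HF mice, 14.62 to 14.88 (median 14.84) in noHF mice and 15.06, 14.96, 15.01, 14.79 and 14.88 in sham mice, and changed by -0.34 ± 0.0574 (adjusted p = 0.000146). Ndufs3, one of the first subunits to be assembled, had 13.28 to 13.46 (median 13.37) in HF mice, 13.53 to 13.60 (median 13.55) in noHF mice and 13.66, 13.69, 13.65, 13.64 and 13.74 in sham mice. Its groups formed 3 separate ranges in the order HF, noHF, sham, and the change of HF against sham mice was -0.30 ± 0.0437 (adjusted p = 3.36e-05). The accessory subunit Ndufa5 had 14.63 to 14.87 (median 14.79) in HF mice, 14.81 to 15.13 (median 14.92) in noHF mice and a narrow 15.01, 14.98, 14.99, 14.99 and 15.01 in sham mice, with a change of -0.23 ± 0.0559 (adjusted p = 0.00279). Ndufab1, the mitochondrial acyl carrier protein, which also serves fatty acid synthesis, changed by -0.16 ± 0.0435 (adjusted p = 0.00811) without overlap between HF and sham mice.

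Around the membrane arm the fall was present in each module. All 5 accessory subunits of the ND1 module fell (18.9% of all genes), by a median of -0.28. Ndufa13, also known as GRIM-19, had 14.08 to 14.25 (median 14.18) in HF mice, 14.22 to 14.46 (median 14.34) in noHF mice and 14.66, 14.63, 14.67, 14.41 and 14.33 in sham mice and changed by -0.37 ± 0.0674 (adjusted p = 0.000315). Ndufa8 had 13.20 to 13.46 (median 13.32) in HF mice, 13.41 to 13.52 (median 13.48) in noHF mice and 13.66, 13.69, 13.61, 13.58 and 13.63 in sham mice and changed by -0.33 ± 0.0528 (adjusted p = 0.000102). In both genes every HF mouse was below every sham mouse, and in Ndufa8 every noHF mouse was as well. Ndufa3 changed by -0.28 ± 0.0538 and Ndufa9, a nucleotide-binding subunit near the ubiquinone site, by -0.22 ± 0.0458 (adjusted p = 0.000537 and 0.0008). Ndufa1, encoded on the X chromosome, changed least of them, by -0.13 ± 0.0464 (adjusted p = 0.0318). HF and sham mice overlapped in Ndufa1, and its call was lost when any of HF mice 1, 2, 4 and 5 or sham mice 1, 3 and 4 was left out (adjusted p up to 0.0617).

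In the ND2 module 3 of 4 accessory subunits fell (18.9% of all genes). Ndufc2 had 13.86 to 13.96 (median 13.89) in HF mice, 13.93 to 14.14 (median 13.98) in noHF mice and 14.32, 14.30, 14.31, 14.12 and 14.06 in sham mice, a change of -0.32 ± 0.0581 (adjusted p = 0.000329). Its partner Ndufc1 changed by -0.29 ± 0.0636 (adjusted p = 0.00145) and Ndufs5 by -0.16 ± 0.0413 (adjusted p = 0.00433), each with every HF mouse below every sham mouse. Ndufa10, a subunit of the deoxyribonucleoside kinase family, did not pass. Its signals were 13.99 to 14.27 (median 14.16) in HF mice, 13.99 to 14.28 (median 14.19) in noHF mice and 14.07, 14.04, 14.05, 14.29 and 14.34 in sham mice, and the difference of HF from sham mice was -0.03 ± 0.0745 (adjusted p = 0.781). Within sham and noHF mice the values of Ndufa10 followed the 18S sets, with low values in sham mice 1 to 3 and noHF mice 5 to 7. All HF arrays are in the low set. With the 18S set as a block the change of Ndufa10 was -0.18 (adjusted p = 0.0162).

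All 5 accessory subunits of the ND4 module fell (18.9% of all genes), by -0.32 to -0.23. The largest change was that of Ndufb1, a small subunit with 7.95 to 8.35 (median 8.17) in HF mice, 8.28 to 8.50 (median 8.40) in noHF mice and 8.50, 8.63, 8.61, 8.29 and 8.33 in sham mice. The change of Ndufb1 was -0.32 ± 0.0755 (adjusted p = 0.00258), with overlap between HF mice and sham mice 4 and 5. Ndufb10 had 14.52 to 14.68 (median 14.61) in HF mice, 14.54 to 14.83 (median 14.81) in noHF mice and 14.89, 14.76, 14.88, 14.82 and 15.08 in sham mice and changed by -0.28 ± 0.0626 (adjusted p = 0.00177). Ndufb11, encoded on the X chromosome, had 13.83 to 13.94 (median 13.92) in HF mice, 13.92 to 14.09 (median 14.04) in noHF mice and 14.24, 14.14, 14.21, 14.07 and 14.15 in sham mice and changed by -0.27 ± 0.0468 (adjusted p = 0.000219). Neither gene overlapped between HF and sham mice, nor did Ndufb5, which changed by -0.23 ± 0.0623 (adjusted p = 0.00643). Ndufb6 changed by -0.26 ± 0.0792 (adjusted p = 0.0133) with overlap, and without sham mouse 1 it no longer passed (-0.20, adjusted p = 0.0509).

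At the tip of the membrane arm, 4 of the 5 ND5-module subunits fell (18.9% of all genes). In all 4 every HF mouse lay below every sham mouse (9.06% of all genes). Ndufb2 had 13.17 to 13.31 (median 13.27) in HF mice, 13.34 to 13.78 (median 13.48) in noHF mice and 13.85, 13.87, 13.82, 13.52 and 13.49 in sham mice. It changed by -0.45 ± 0.0872 (adjusted p = 0.000495), and among sham mice the 3 of the high 18S set stood above the other 2. Ndufb8, which joins late and whose protein is a usual marker of assembled complex I, had 13.53 to 13.71 (median 13.66) in HF mice, 13.76 to 14.01 (median 13.82) in noHF mice and 14.05, 14.08, 14.06, 13.86 and 13.82 in sham mice. Its change was -0.34 ± 0.0664 (adjusted p = 0.000558). Ndufb9, which like Ndufa6 binds the acyl carrier protein, had 14.63 to 14.80 (median 14.75) in HF mice, 14.84 to 15.06 (median 14.92) in noHF mice and 14.92, 14.96, 14.97, 14.95 and 14.96 in sham mice, a change of -0.23 ± 0.0507 (adjusted p = 0.00137). Ndufb7 changed by -0.27 ± 0.0616 (adjusted p = 0.00218). Ndufb3 did not pass and had 13.56 to 13.70 (median 13.62) in HF mice, 13.62 to 13.76 (median 13.68) in noHF mice and 13.63, 13.64, 13.63, 13.68 and 13.44 in sham mice. The groups overlapped throughout, the difference was 0.01 ± 0.0492 (adjusted p = 0.939), and without sham mouse 5, the lowest of its group, it was -0.04.

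Of the 8 assembly factors tested, 6 fell in HF mice (18.9% of all genes). Ndufaf3, which works with Ndufaf4 on the early Q module, had 9.77 to 10.03 (median 9.92) in HF mice, 10.04 to 10.44 (median 10.15) in noHF mice and 10.35, 10.34, 10.33, 10.27 and 10.39 in sham mice. HF mice lay below both other groups, with a change of -0.43 ± 0.0669 against sham (adjusted p = 7.08e-05). Ndufaf4 itself changed by -0.35 ± 0.0996 (adjusted p = 0.00957), with overlap between 10.84 to 11.29 (median 11.14) in HF mice and 11.57, 11.35, 11.55, 11.19 and 11.56 in sham mice. Ndufaf5, an enzyme that hydroxylates Ndufs7, had 8.68 to 8.91 (median 8.84) in HF mice, 8.91 to 9.0 (median 8.97) in noHF mice and 9.07, 9.18, 9.26, 9.06 and 9.24 in sham mice. Every banded mouse, with or without HF, was below every sham mouse, and the change in HF mice was -0.34 ± 0.0526 (adjusted p = 6.05e-05). Its partner Ndufaf8 changed by -0.22 ± 0.069 (adjusted p = 0.018) with overlap. Ndufaf6, which acts early on the ND1 module, changed by -0.38 ± 0.0805 (adjusted p = 0.00117) without overlap. Ndufaf7, a methyltransferase, changed by -0.17 ± 0.058 (adjusted p = 0.0301). Its call was lost without HF mouse 1 or 7 or sham mouse 1 or 4 (adjusted p up to 0.0674). Ndufaf1, part of the membrane-arm assembly complex, had 10.89 to 11.19 (median 11.13) in HF mice and 11.32, 11.41, 11.27, 11.20 and 11.03 in sham mice and did not pass (-0.15 ± 0.068, adjusted p = 0.0794); without sham mouse 5 it did (-0.21, adjusted p = 0.0182). Ndufaf2, which holds the place of Ndufa12 during assembly, did not pass either (-0.09 ± 0.0502, adjusted p = 0.17), and passed without HF mouse 3, the highest of its group (-0.12, adjusted p = 0.0286).

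The Ndufa4 pair carries complex I names, but Ndufa4 is now counted as a subunit of complex IV and Ndufa4l2 as its relative, known as a target of the hypoxia factor HIF-1. Ndufa4 behaved like the complex I subunits, with 13.94 to 14.10 (median 14.01) in HF mice, 14.09 to 14.38 (median 14.17) in noHF mice and 14.36, 14.34, 14.41, 14.29 and 14.10 in sham mice. Its change was -0.28 ± 0.0641 (adjusted p = 0.00194), and HF mice reached sham mouse 5 alone. Ndufa4l2 had 6.85 to 7.25 (median 7.01) in HF mice, 7.00 to 7.69 (median 7.36) in noHF mice and 6.57, 6.63, 6.69, 6.71 and 7.22 in sham mice, so 4 sham mice lay below all banded mice and sham mouse 5 lay among them. Its difference was 0.27 ± 0.127 in HF against sham mice (adjusted p = 0.0941), and 0.39 without sham mouse 5 (adjusted p = 0.0135). In noHF against sham mice Ndufa4l2 rose by 0.61 ± 0.127 (adjusted p = 0.00322), and it was 0.55 to 0.72 when each mouse in turn was left out. The difference was 0.97 between the arrays of the high 18S set (adjusted p = 0.00487) and 0.23 between those of the low set (adjusted p = 0.459), and -0.060 within the animal ID series that holds sham mouse 5. HF against noHF mice differed by -0.33 ± 0.116 in Ndufa4l2 (adjusted p = 0.077).

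**Figure D2:**
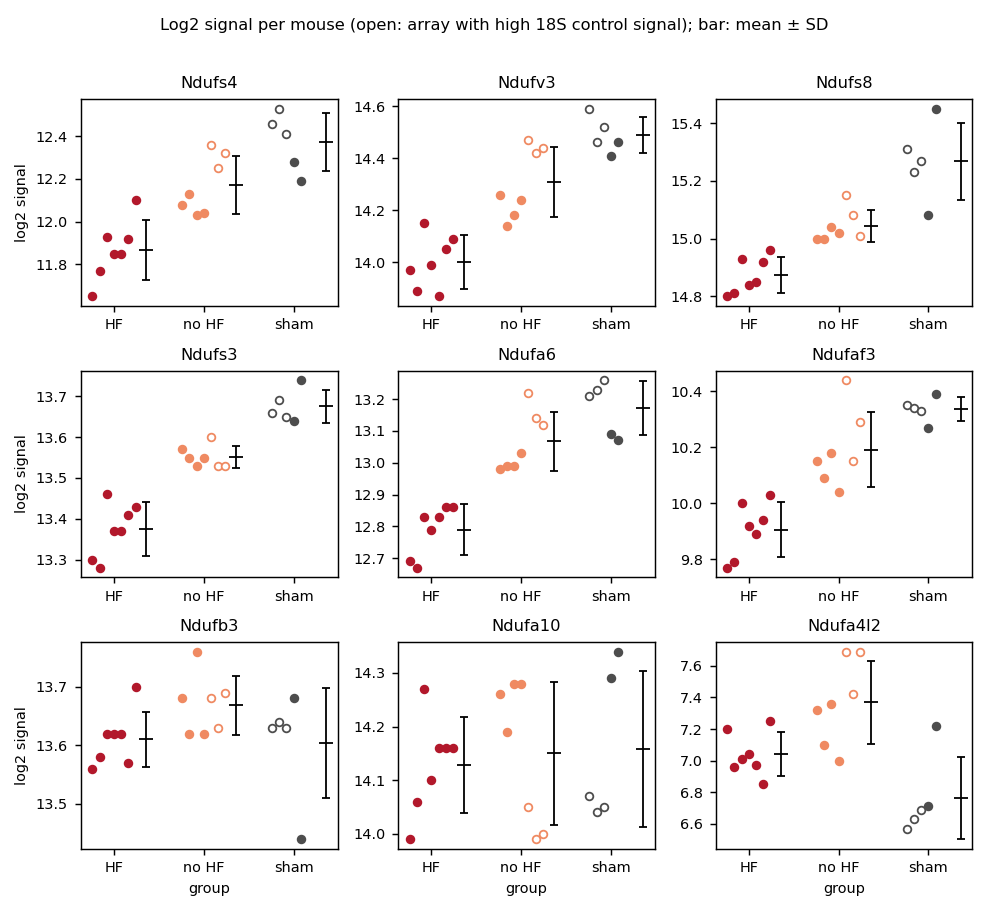
Log2 signal of 9 Nduf genes in each mouse, by group (HF, noHF, sham from left to right), with the group mean ± SD as a bar beside the points and a separate vertical axis in each panel. In Ndufs4, Ndufv3, Ndufs8, Ndufs3, Ndufa6 and Ndufaf3 no HF mouse reaches a sham mouse, and in Ndufb3 and Ndufa10 the groups overlap. In Ndufa4l2 the noHF mice have the highest mean, and the groups overlap. Open points are arrays with a high 18S control signal.

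After banding without heart failure few of these genes passed the threshold. In noHF against sham mice, 6 of the 43 members fell, 1 rose and 36 did not pass, while 6.53% of all genes were called lower and 10.8% higher. The median log2 change of the members was -0.12, against 0.02 over all genes, and 40 of the 43 changes were negative, against 45.8% of all genes. In limma 21 of the 43 had an unadjusted p below 0.05. The genes that fell were Ndufs8 (-0.22 ± 0.0581, adjusted p = 0.0134), Ndufaf5 (-0.20 ± 0.0526, adjusted p = 0.0146), Ndufc2 (-0.20 ± 0.0581, adjusted p = 0.0261), Ndufv1 (-0.19 ± 0.0561, adjusted p = 0.0273), Ndufa8 (-0.17 ± 0.0528, adjusted p = 0.0356) and Ndufb11 (-0.14 ± 0.0468, adjusted p = 0.0413). They lie in the Q, N, ND1, ND2 and ND4 modules and among the assembly factors, and Ndufa4l2 was the one that rose. The noHF mice lay wholly below the sham mice in 6 members, Ndufa7, Ndufa8, Ndufa9, Ndufaf5, Ndufs3 and Ndufv2, which was so for 3.04% of all genes, and wholly above them in 0 (4.63% of all genes). Of the changes past the threshold, those of Ndufs8, Ndufaf5 and Ndufa4l2 stayed past it when each mouse in turn was left out. The count fell to 4 without noHF mouse 1 or 3 or sham mouse 1, 2 or 3, and was 9 without sham mouse 4. Since HF and noHF mice were compared with the same 5 sham mice, the 2 comparisons are not independent of each other.

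HF mice were lower than noHF mice in 18 of the 43 members and higher in 0, while 5.65% of all genes were called lower and 3.83% higher. All 43 differences were negative, against 53.6% of all genes, with a median of -0.17 for the members and -0.01 for all genes. The N module held 5 of the 18 calls, all accessory subunits. Among them Ndufs4 differed by -0.31 ± 0.0755 (adjusted p = 0.0167), Ndufv3 by -0.30 ± 0.0628 (adjusted p = 0.00682) and Ndufa6 by -0.28 ± 0.0534 (adjusted p = 0.00498). The others were Ndufa7 (-0.24 ± 0.0575, adjusted p = 0.0153) and Ndufa12 (-0.22 ± 0.068, adjusted p = 0.0498). All 3 core Q-module subunits differed, Ndufs7 by -0.20 ± 0.0524 (adjusted p = 0.0224), Ndufs3 by -0.18 ± 0.0399 (adjusted p = 0.0112) and Ndufs8 by -0.17 ± 0.053 (adjusted p = 0.0477). In the ND5 module Ndufb2 (-0.29 ± 0.0796, adjusted p = 0.029), Ndufb8 (-0.23 ± 0.0606, adjusted p = 0.0224) and Ndufb9 (-0.21 ± 0.0463, adjusted p = 0.00904) differed. Among assembly factors Ndufaf3 (-0.28 ± 0.0611, adjusted p = 0.00838) and Ndufaf8 (-0.21 ± 0.063, adjusted p = 0.0395) did.

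The other calls between HF and noHF mice were Ndufc1 (-0.21 ± 0.058, adjusted p = 0.0277), Ndufb1 (-0.23 ± 0.0689, adjusted p = 0.0417), Ndufa4 (-0.21 ± 0.0586, adjusted p = 0.0295), Ndufa5 (-0.17 ± 0.0511, adjusted p = 0.046) and Ndufa8 (-0.16 ± 0.0482, adjusted p = 0.0457). None of the 3 core N-module subunits passed in this comparison. All HF mice lay below all noHF mice in 10 members, Ndufa6, Ndufa7, Ndufaf3, Ndufaf8, Ndufb2, Ndufb8, Ndufb9, Ndufs3, Ndufs8 and Ndufv2, which was so for 1.8% of all genes, and above them in 0 (0.839% of all genes). The 7 members Ndufa6, Ndufa7, Ndufaf3, Ndufb9, Ndufs3, Ndufs4 and Ndufv3 passed whichever mouse was left out. Single mice moved the count of calls widely, to 7, 8 and 9 without noHF mouse 5, 6 or 7, whose arrays are in the high 18S set. It was 8, 10 and 11 without HF mouse 1, 2 or 4, 12 without noHF mouse 2, and 22 without noHF mouse 1. The count over all 10733 genes moved too. With all mice 606 genes were lower. Without noHF mouse 5, 6 or 7 there were 311, 406 and 417, and 703 without noHF mouse 1. Without HF mouse 1, 2 or 4 there were 419, 365 and 436, and 475 without noHF mouse 2.

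**Figure D3:**
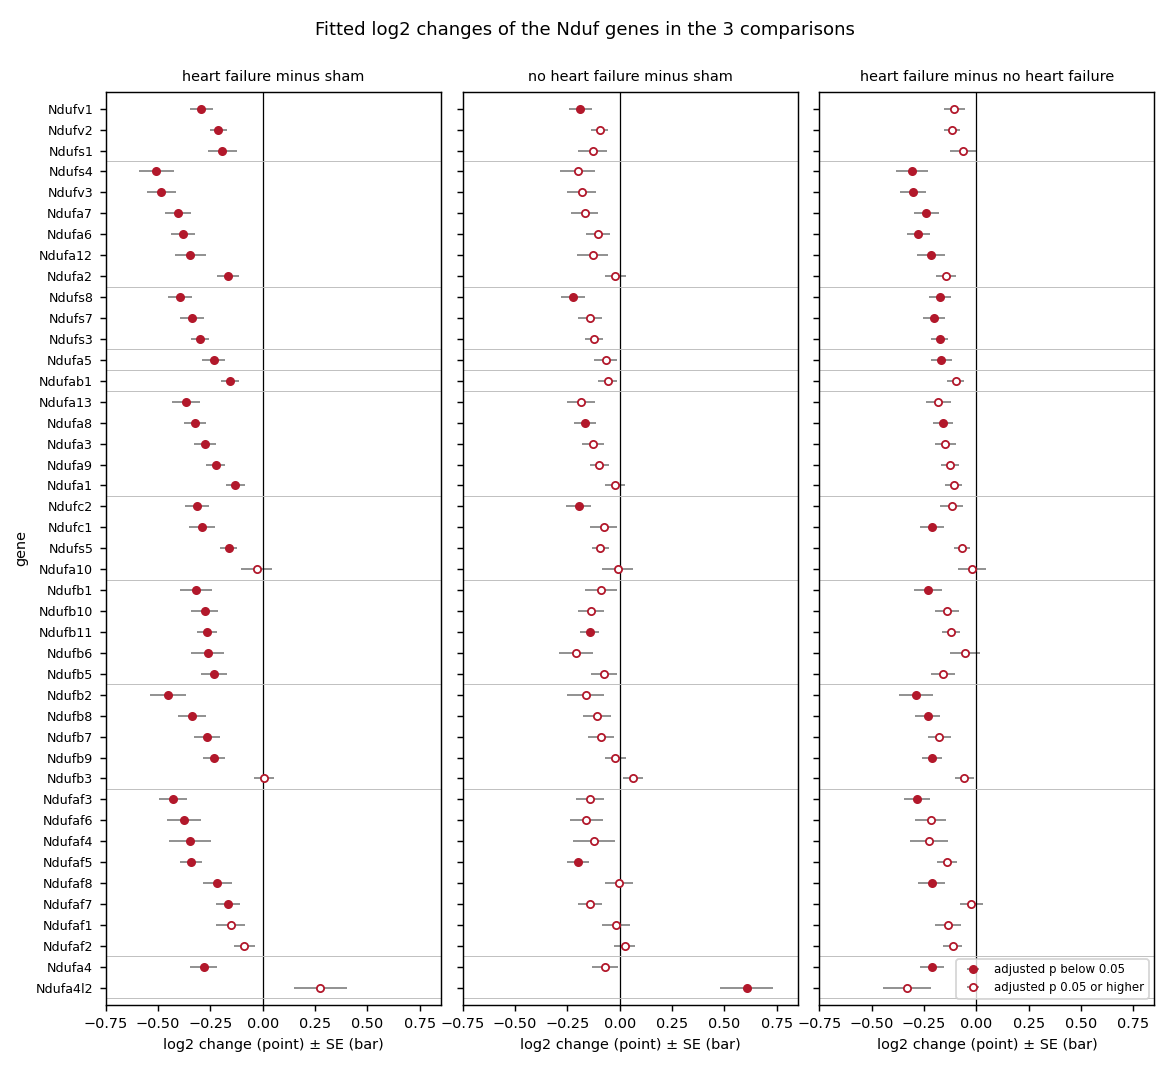
Fitted log2 change (points) with its SE (bars) for each Nduf gene (rows, by module) in HF against sham mice, noHF against sham mice and HF against noHF mice, with filled points where the adjusted p was below 0.05. In HF against sham mice 38 points are filled and left of 0, in noHF against sham mice 7 are filled, 1 of them to the right, and in HF against noHF mice 18 are filled and all 43 points lie left of 0.

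The 18S sets touched these genes. In a fit with group and 18S set together, 13 members were higher and 2 lower on arrays of the high set (15.5% and 9.95% of all genes), with Ndufb2 the highest (0.33) and Ndufa10 the lowest (-0.25). Since no HF array is in the high set, HF mice were also compared with the 2 sham mice of the low set alone: 26 members were then lower, against 11.3% of all genes, with a median change of -0.21. The 12 that no longer passed were Ndufa1, Ndufa2, Ndufa4, Ndufa5, Ndufaf4, Ndufaf7, Ndufaf8, Ndufb1, Ndufb5, Ndufb6, Ndufb7 and Ndufs5. With the 18S set as a block, 35 members were lower in HF against sham mice (15.2% of all genes), 10 lower and 1 higher in noHF against sham mice (8.43% of all genes lower), and 11 lower in HF against noHF mice (5.03%). Between HF mice and the 4 noHF mice of the low set, 0 members passed in limma (0.773% of all genes lower), while 24 had an unadjusted p below 0.05, 42 of 43 differences were negative and the median was -0.14, beside -0.17 with all mice. Between noHF and sham mice of the low set 0 passed in limma too (1.24% of all genes lower), with 7 at an unadjusted p below 0.05.

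The actin 3′ minus 5′ difference, which separated banded from sham mice, was also entered as a covariate. In that fit 20 members were lower in HF against sham mice (10.3% of all genes), all among the 38, with a median of -0.22. Between noHF and sham mice 2 were lower (3.31% of all genes) and 1 higher, 2 of them among the 7 of the fit without it, and 31 of 43 changes were negative. In HF against noHF mice 23 were lower (7.3% of all genes). Ndufs4, Ndufv3, Ndufa6 and Ndufa7 of the N module's accessory subunits, all 3 core Q-module subunits, Ndufv1, Ndufv2, Ndufa3, Ndufa8, Ndufa9, Ndufb11, Ndufc2, Ndufaf3, Ndufaf5 and Ndufaf6 passed in HF against sham mice under every one of 11 other settings and whichever of the 12 mice was left out, 17 of the 38. Of the 18 calls in HF against noHF mice and the 7 in noHF against sham mice, 0 passed under every such setting. How far RNA length or the 18S signal has a part in the remaining calls was not tested, and the labels name no processing batch. The animal IDs in the labels fall into 3 number series, each of which holds all 3 groups. With the ID series as a block 38 members were called in HF against sham mice, all lower (19% of all genes), 10 in noHF against sham mice, 9 of them lower (8.2%), and 21 in HF against noHF mice, all lower (6.92%). Within the largest series, which has 2 HF, 3 noHF and 3 sham mice, 37 members were lower and 1 higher in HF against sham mice (20.3% of all genes lower), 3 lower and 1 higher in noHF against sham mice (7.37%), and 25 lower in HF against noHF mice (12.5%). Its noHF and sham arrays are the 6 of the high 18S set and its HF arrays are of the low set, so in that series heart failure and the 18S set cannot be told apart. Within each of the other 2 series, with 1 sham mouse each, 0 members passed in limma in any comparison. Of all genes, 0% were lower in any comparison of the second series, and in the third 0.214% were lower in HF against sham mice, 0.00932% in noHF against sham mice and 0% in HF against noHF mice. The median changes of HF against sham mice within the 3 series were -0.34, -0.18 and -0.20, and 7 and 10 members had an unadjusted p below 0.05 in the 2 smaller series.

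Further probe sets of these genes were tested as well. Of the 80 Nduf probe sets above the filter, 71 were lower in HF than in sham mice and 0 higher when each was tested by itself over 20497 probe sets, of which 16.4% were lower. In noHF against sham mice 14 of the 80 were lower and 1 higher (5.15% of all probe sets lower), and in HF against noHF mice 27 were lower and 0 higher (3.34%). Among the 37 that had not been chosen to stand for their gene, 33 were lower in HF than in sham mice. No gene had called probe sets of opposite sign among the 22 with more than 1. Ndufs4 had 2 further probe sets, which changed by -0.71 ± 0.0765 and -0.50 ± 0.127, beside -0.51 ± 0.0835 for the chosen one in this fit. The 4 further probe sets of Ndufs8 changed by -0.62 to -0.28. Ndufaf4 changed by -0.72 ± 0.0823 in its other probe set, more than in the chosen one. Ndufa10, which did not pass, had a dimmer probe set that fell by 0.38 ± 0.123 (adjusted p = 0.0214). For Ndufab1 the dimmer probe sets changed by as much as -1.14 ± 0.344, against -0.16 for the brightest. Which transcripts each probe set reads was not analysed here.

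**Figure D4:**
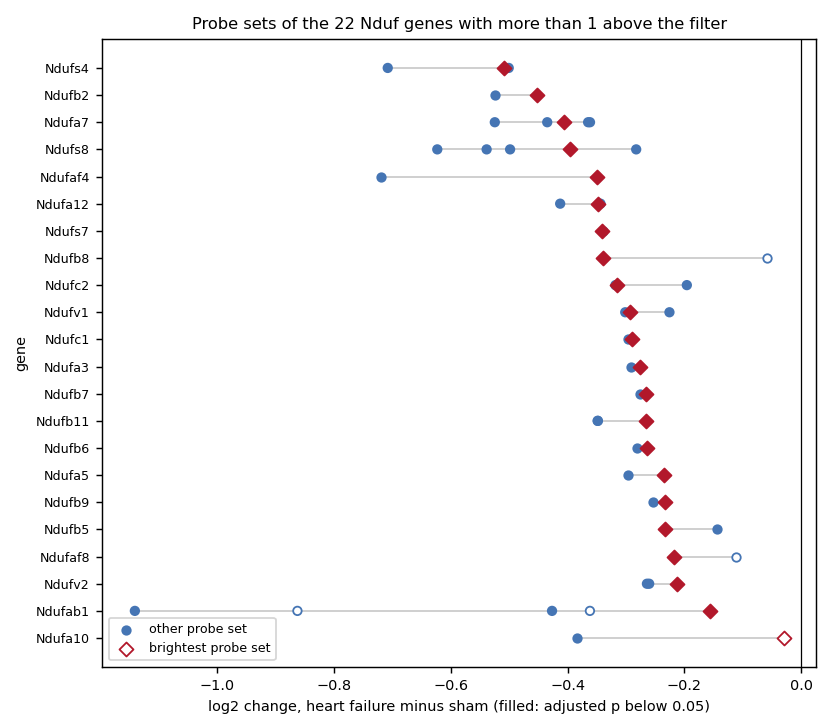
Log2 change in HF minus sham mice (horizontal axis) for every probe set of the 22 Nduf genes (rows) with more than 1 above the filter; diamonds are the brightest probe set, circles the others, filled where the adjusted p was below 0.05. Nearly all points lie left of 0, and the widest span is that of Ndufab1, down to -1.14.

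Other genes of complex I and of its neighbours, from lists of genes with known roles, are given as counts. Of 12 complex I assembly factors without an Nduf name, 9 fell in HF against sham mice (18.9% of all genes). The median change of the 12 was -0.29. Timmdc1, a factor for the membrane arm, had the largest fall (-0.66 ± 0.13, adjusted p = 0.000555), and Ecsit, which works with Ndufaf1, fell by 0.38 ± 0.062 (adjusted p = 0.0001). Tmem70 (-0.33 ± 0.0569), Tmem126b (-0.32 ± 0.0942) and Aifm1 (-0.32 ± 0.0686) also fell. Timmdc1, Tmem126b, Tmem70 and Aifm1 were lower in noHF against sham mice too, and Ecsit was the single one that differed between HF and noHF mice (-0.36 ± 0.0566, adjusted p = 0.0017). Of all genes, 6.53% were lower in noHF against sham mice and 5.65% in HF against noHF mice. The only mitochondrially encoded subunit tested, ND5, averaged 15.58 ± 0.0391 in HF mice, 15.68 ± 0.08 in noHF mice and 15.70 ± 0.062 in sham mice, a difference of -0.12 between HF and sham mice that did not pass (adjusted p = 0.0565).

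Of 40 genes of complexes II to V, 30 fell in HF against sham mice and 0 rose, with a median of -0.24, beside -0.28 for the 43 Nduf genes. In that comparison 18.9% of all genes were called lower and 20.4% higher. In noHF against sham mice 5 of the 40 fell (6.53% of all genes), with a median of -0.10. In HF against noHF mice 10 fell (5.65% of all genes), with a median of -0.12. Among 11 markers of mitochondrial membranes and matrix 4 fell in HF against sham mice (18.9% of all genes), and the median was -0.10. The 4 were Timm23 (-0.30), Cs (-0.29), Vdac1 (-0.26) and Vdac3 (-0.26). No difference between these lists and the Nduf genes was tested. Of 16 regulators of respiratory genes 4 fell in HF against sham mice (18.9% of all genes) and 1 rose (20.4% of all genes). The 4 were Tfb1m (-0.47), Polrmt (-0.46), the fatty acid receptor gene Ppara (-0.43) and Gabpa (-0.22). The coactivator gene Pprc1 was the one that rose (0.35). Ppargc1a, the coactivator known for mitochondrial growth, averaged 10.21 ± 0.194 in HF mice, 10.32 ± 0.431 in noHF mice and 10.55 ± 0.206 in sham mice and did not pass (-0.34 ± 0.17, adjusted p = 0.126). Esrrg (-0.19), Nrf1 (-0.17), Tfam (-0.12), Esrra (-0.11) and Esrrb (-0.10) did not pass in HF against sham mice either. Against noHF mice, Polrmt (-0.32) and Esrrg (-0.24) were lower in HF mice, and when each of the 14 mice was left out the call of Polrmt was lost in 6 cases (adjusted p up to 0.0712) and that of Esrrg in 10 (adjusted p up to 0.101).

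Markers of other cell types moved beside these genes. In HF against sham mice, 10 of 11 fibroblast markers rose with a median of 0.93, and 4 of 15 cardiomyocyte markers fell and 3 rose with a median of -0.04. Of all genes, 18.9% were called lower and 20.4% higher in that comparison. Against sham mice, noHF mice had 7 of the 11 fibroblast markers higher (median 0.49, 10.8% of all genes higher). In HF against noHF mice 6 of the 11 were higher (median 0.40, 3.83% of all genes higher). The cardiomyocyte markers Ckm and Tnni3 were lower (2 of 15, median of the 15 -0.05, 5.65% of all genes lower). Of 12 macrophage and leukocyte markers 0 passed in either comparison. Among the others, 4 of 11 endothelial markers were higher in HF than in sham mice, 2 of 8 smooth muscle and pericyte markers were higher and 1 lower, and 2 of 6 atrial markers were higher and 1 lower. Of 3 skeletal muscle markers 1 was higher and 1 lower, and of 2 erythroid markers 0 passed. The defining markers Bmp10 (atrial), Myh4, Myh1, Tnnt3 and Tnni2 (skeletal muscle) were not among the genes tested. The part of the cell mixture in the fall of the Nduf genes was not tested.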

How the data were processed

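Left ventricular RNA of 19 mice was read on Affymetrix arrays with 45101 probe sets. The authors deposited log2 expression values, and the submitters' processing notes name GCRMA. Its version and a genome build are not given in the sources used here. This method corrects background by probe sequence, normalises across arrays and summarises each probe set. Differences of dim probe sets may be compressed, which was not tested. Arrays have no read depth, and the number of mice limits the precision. There were 0 columns without a sample.

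Gene names come from GEO's annotation of the platform, which gave 34958 of them 1 symbol and 932 several, and left 9211 unlisted. Log2 above 4 on at least 5 arrays left 20497 probe sets, 18595 with 1 symbol, for 10733 genes. The brightest probe set over all arrays stood for its gene.

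The 3 groups were compared in 1 limma model of all 19 arrays with group as its single term (limma 3.58.1 under R 4.3.3, with lmFit, then eBayes), two-sided, with Benjamini-Hochberg adjustment over all genes tested and a threshold of 0.05. Changes are differences of mean log2 values ± SE. Tested on simulated data with 100 genes changed by 0.3 and 100 by 0.6 (log2), the fit recovered 24% and 74% in HF against sham mice, 20% and 71% in noHF against sham mice and 34% and 72% in HF against noHF mice, with 5 of 103, 0 of 91 and 4 of 110 calls false. The simulated noise was drawn independently for each gene. Fewer genes were changed in it than were called in the data, so these shares need not hold for the members. Members, lists and settings were chosen with earlier results of these data known. All members may be named in HF against sham mice, and in the other comparisons those past the threshold and the 5 with the largest change. Of other lists, at most 5 genes per direction past the threshold are named, and always Ppargc1a, Esrra, Esrrb, Esrrg, Tfam, Nrf1 and Gabpa. P-values measure the spread between these mice, which share no stated litter or batch.

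Alternatives covered the filter, the mean of a gene's probe sets, scaling, blocks, the actin covariate, fewer samples, the variance model and leaving out each mouse; single ID series and single probe sets were added after seeing the data. Start windows and motifs come from RefSeq tables. Figures were drawn with matplotlib 3.10.9 from tables read with pandas 2.3.3 (Python 3.11.15).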

Additional observations from a re-analysis of the deposited data

Results flagged for a closer look

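Within groups of 4 to 10 mice, 4 of 129 combinations of gene and group had a mouse that stood far from the others by Dixon's gap test, and chance alone flags about 1 in 20. Ndufa4l2 was 7.22 in sham mouse 5, where the nearest sham mouse had 6.71 and the lowest 6.57. Ndufb3 was 13.44 in the same mouse, where the nearest had 13.63 and the highest 13.68. Ndufa5 was 15.13 in noHF mouse 2, where the nearest had 14.94 and the lowest 14.81. Ndufaf2 was 10.02 in HF mouse 3, where the nearest had 9.80 and the lowest 9.74.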

How the results depend on the processing

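In HF against sham mice the members called lower were 35 to 40 of 43 under 9 alternatives and 35 to 39 when each mouse was left out (median change -0.30 to -0.27). The exceptions were 20 with the actin covariate (median -0.22), 26 on the low 18S set (median -0.21), and 0 within each of the 2 smaller ID series (medians -0.18 and -0.20). The median was -0.35 with equal array medians, -0.21 with the 18S block and -0.34 in the largest ID series. Equal array medians called 2763 genes lower and 1689 higher, against 2027 lower and 2193 higher in the main fit. Genes called lower were 1107 with the actin covariate, 1208 on the low 18S set and 1723 to 2190 with mice left out.

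In noHF against sham mice 7 members were called, and the count was 13 with the mean of a gene's probe sets, 18 with equal array medians (median -0.17), 11 with the 18S block, 3 with the actin covariate (median -0.078), 0 on the low and 2 on the high 18S set, 4 with only the 2 groups, 13 with eBayes trend and robust, 4 in the largest ID series and 0 in each smaller one. It was 4 to 9 when each mouse was left out. Over all genes 701 were lower in the main fit. That number was 660 with the mean of probe sets, 1051 with equal array medians, 905 with the 18S block and 355 with the actin covariate. On the low and high 18S sets it was 133 and 639, and in the largest ID series 791. With only the 2 groups it was 586, with trend and robust 748, and with mice left out 454 to 914.

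In HF against noHF mice 18 were called, and the count was 11 with the 18S block and 0 on the low 18S set. It was 28 with trend and robust and 7 to 22 when each mouse was left out. Over all genes 606 were lower in the main fit, 540 with the 18S block and 83 on the low 18S set. With trend and robust 658 were lower, and 311 to 703 with mice left out. For the members, the counts by ID series follow. In the 3 ID series it was 25, 0 and 0, with medians of -0.24, -0.11 and -0.11. 

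Signs of some changes in HF against sham mice turned: Esrrb to 0.0096 with the mean of probe sets, Ndufa10 to 0.035 after quantile normalisation, and Ndufb3 to -0.062 with equal medians and -0.019 with the actin covariate. Within the largest ID series Ndufb3 was -0.064 and Esrra 0.029. Within the second, Ndufb3 was -0.063, Ndufaf4 0.019 (-0.35 with all mice) and Nrf1 0.13. Within the third, Ndufa4l2 was -0.20 (0.27 with all mice; in noHF against sham mice -0.060, against 0.61 with all mice), Ndufaf1 0.13 and Tfam 0.036. With mice left out Ndufb3 ran from -0.036 to 0.025, Ndufa10 from -0.059 to 0.016 and Esrra from -0.21 to 0.0013. The cause was not tested in any of these. No paired analysis was made, since each mouse gave 1 array and the labels name no pairs of mice. The labels give no replicate numbers, and those used here were given in sample order. Most members lie high in the signal range, where an array may compress differences, and only 5 sham mice carry both comparisons with sham.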

Other observations

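Some probe sets of complex I genes map to several symbols and so stood for no member. Of 7 such probe sets above the filter, 5 were lower in HF than in sham mice, when tested over all 20497 probe sets, of which 16.4% were lower. The pair for Ndufb4 and its copies Ndufb4b and Ndufb4c changed by -0.41 ± 0.0561 and -0.46 ± 0.0562 (limma adjusted p = 2.54e-05 and 6.64e-06). The one for Ndufs6 and Ndufs6b, where Ndufs6 is a zinc-binding N-module subunit, changed by -0.41 ± 0.0665 (adjusted p = 0.00013). For Ndufa11 and Ndufa11b the change was -0.22 ± 0.055 (adjusted p = 0.00421), and for Ndufab1 and its pseudogene copy it was -0.35 ± 0.068 (adjusted p = 0.000595). Which of the copies gives the signal cannot be told apart by these probe sets.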
